A study of Mus musculus with 51 samples.

Results

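Between the progenitor and the late astrocyte stage, 5305 H3K27ac sites carried a peak at both ends of the course and none in between. They are the aNPC H3K27ac peaks on chromosomes 1 to 19 that overlap an lA peak by 1 bp or more and overlap no eA peak, and they made up 5305 of the 77553 aNPC peaks on these chromosomes (6.84%). The sites were chosen by the presence and absence of H3K27ac peaks in the aNPC, eA and lA lists, so every H3K27ac value given for them below is a description and carries no test. The other aNPC peaks fell into 3 classes, with 37074 peaks shared by all 3 stages, 7235 present in aNPC and eA but not in lA, and 27939 found in aNPC alone.

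The study followed astrogliogenesis in vitro with mouse embryonic stem cells of the C57/BL-6 strain. The astrogliogenic neural precursor cells (aNPC) were kept in DMEM-F12 with N2, EGF and FGF-2. A change to DMEM with 1% FBS and LIF gave early astrocytes (eA) after 1 day and late astrocytes (lA) after 5 days. H3K27ac and H3K4me1 were each profiled by ChIP-seq in 2 replicates per stage, which the authors merged before calling peaks. Every culture was thus of one strain and one protocol, no stage carried a transgene or a knockdown, and each stage and mark is represented by 1 list of peaks, so no spread between cultures can be set beside a change from stage to stage. Read counts are not part of the lists, and the depth behind a peak is unknown. The lists thus cannot tell a site without the mark from one below the calling threshold.

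Acetylation of lysine 27 on histone H3 (H3K27ac) is found at active promoters and enhancers. Monomethylation of lysine 4 (H3K4me1) lies at enhancers whether or not they are active, and an enhancer with H3K4me1 but without H3K27ac is often called primed or poised. Neural progenitors depend on EGF and FGF signalling and on Notch effectors such as Hes1, whereas LIF acts through the gp130 receptor, JAK kinases and Stat3 in the onset of astrocyte genes, with Nuclear factor I proteins as partners.

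The stage labels were checked by an H3K27ac peak at the promoter of marker genes, which here reaches from 1 kb before a coding start site to 100 bp after it. Of 7 progenitor markers, 6 had such a peak in each of the 3 lists, and Olig2, a transcription factor of the oligodendrocyte and progenitor lineage, had none. Of 7 astrocyte markers, 4 had one in the aNPC list, 4 in the eA list and 5 in the lA list, and the sets differed. The promoter of Gja1, which encodes the gap junction protein connexin 43, had a peak in eA and lA but not in aNPC. The water channel gene Aqp4 had one in lA only, and Aldh1l1 had none at any stage. S100b, which encodes a calcium-binding protein of astrocytes, went against the stage labels, with a promoter peak in aNPC and none in eA or lA. None of the oligodendrocyte (Mbp, Mog), microglial (Aif1, Cx3cr1, Ptprc) and endothelial (Pecam1, Cldn5) markers had a promoter peak in any list, and of 4 neuronal markers Tubb3 and Map2 had one at every stage while Rbfox3 and Dcx had none.

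The letters at the members are shown for 7 sites, each as the 200 bp around the aNPC H3K27ac summit on the plus strand of mm9. Capitals mark exact matches, on either strand, of any of 10 short motifs described further below. The first belongs to the 12 sites with the highest ranks in both lists and no eA peak within 1 kb. It lies in an intron of the sialyltransferase gene St6galnac1, with the start site of Gm11735 nearest.

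Gm11735, E-box and TEAD letters, chr11:116614936-116615135: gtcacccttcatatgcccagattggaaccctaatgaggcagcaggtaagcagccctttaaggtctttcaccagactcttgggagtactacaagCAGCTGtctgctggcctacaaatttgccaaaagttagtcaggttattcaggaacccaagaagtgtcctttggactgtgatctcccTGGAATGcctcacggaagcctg

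The next is the stronger of the members of Egfr, the receptor of the EGF on which the aNPC were grown. It lies in an intron of this gene model.

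Egfr, AP-1 letters, chr11:16730666-16730865: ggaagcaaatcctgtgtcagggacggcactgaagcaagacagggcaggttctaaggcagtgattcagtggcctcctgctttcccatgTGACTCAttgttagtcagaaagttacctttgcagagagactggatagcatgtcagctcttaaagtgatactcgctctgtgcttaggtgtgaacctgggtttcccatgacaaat

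The remaining 5 show, for the Sox, Lhx2, AP-1, Stat and GC box letters, the member with the highest ranks among those that hold the letters and could be shown. They lie in introns of Klf3, a Krüppel-like repressor, of Cmtm3 and of Pde1c, a cyclic nucleotide phosphodiesterase, near Gng11, a G protein subunit gene, and at the promoter of the antiproliferative gene Tob2.

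Klf3, Sox letters, chr5:65197845-65198044: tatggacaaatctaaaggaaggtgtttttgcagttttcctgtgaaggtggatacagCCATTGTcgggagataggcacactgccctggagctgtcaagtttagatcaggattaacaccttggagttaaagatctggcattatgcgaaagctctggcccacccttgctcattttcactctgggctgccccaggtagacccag

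Gng11, Lhx2 and RUNX letters, chr6:3959812-3960011: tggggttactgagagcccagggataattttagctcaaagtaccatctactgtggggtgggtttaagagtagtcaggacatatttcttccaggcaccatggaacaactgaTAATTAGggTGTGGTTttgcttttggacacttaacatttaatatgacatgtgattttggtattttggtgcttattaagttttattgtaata

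Cmtm3, AP-1 and NF1 half-site letters, chr8:106865571-106865770: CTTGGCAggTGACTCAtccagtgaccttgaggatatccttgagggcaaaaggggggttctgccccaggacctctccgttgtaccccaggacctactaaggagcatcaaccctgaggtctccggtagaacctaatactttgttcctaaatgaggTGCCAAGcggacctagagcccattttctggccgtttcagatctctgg

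Pde1c, Stat letters, chr6:56141089-56141288: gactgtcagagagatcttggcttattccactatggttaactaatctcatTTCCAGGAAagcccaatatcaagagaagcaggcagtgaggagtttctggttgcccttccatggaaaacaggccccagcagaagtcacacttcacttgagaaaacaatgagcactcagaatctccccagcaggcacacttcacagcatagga

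Tob2, GC box letters, chr15:81690157-81690356: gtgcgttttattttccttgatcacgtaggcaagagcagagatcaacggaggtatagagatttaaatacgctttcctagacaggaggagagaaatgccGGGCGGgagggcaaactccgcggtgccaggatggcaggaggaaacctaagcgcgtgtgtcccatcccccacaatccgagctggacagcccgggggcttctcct

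The members were narrow and weak peaks of the aNPC list. Their median width was 327 bp, against 656 bp for peaks of all 3 stages, 396 bp for peaks of aNPC and eA and 284 bp for peaks of aNPC alone. The −log10 q that the authors' peak caller gave at the summit had a median of 6.71 in the members, with quartiles of 4.65 and 11.2. It was 23.2 at peaks of all stages, 9.63 at peaks of aNPC and eA and 6.03 at peaks of aNPC alone. Ranked within the aNPC list, where 100% is the strongest peak, the median member stood at 35.9%, and the lA peak that overlapped it stood at 33.2% of the lA list. The aNPC and lA summits of a member lay a median of 120 bp apart, compared with 92 bp at peaks of all stages, and in 3704 members (69.8%) they were within 200 bp. A median of 64.3% of a member was covered by its lA peak, against 83.2% at peaks of all stages.

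At the edges of the rule the sites differed by single bases. The smallest overlap with an lA peak among the members was 1 bp, which 7 members had, among them an intergenic site on chromosome 1 whose nearest start site was that of Prox1, a homeobox gene. Another 8 members touched an eA peak without sharing a base with it, such as chr17:12399266-12399523 in an intron of the kinase gene Map3k4 (−log10 q of 15.2). On the other side, 5 peaks of all stages were left out of the members for an eA overlap of 1 bp, such as chr2:163421106-163421690 near Ttpal. Within 10 bp of the edge there were 62 members by their gap to eA, 56 by their lA overlap and 62 peaks left out by their eA overlap.

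Members lay away from promoters. Of the 5305 sites, 187 (3.52%, 95% Wilson interval 3.06 to 4.06%) had their centre at a promoter, 138 lay in exons, 2320 in introns and 2660 (50.1%, 48.8 to 51.5%) between genes. The promoter share was 19.01% at peaks of all stages, 11.2% at peaks of aNPC and eA and 2.65% at peaks of aNPC alone. Members were less often at promoters than both of the former classes (two-sided Fisher's exact test with Benjamini-Hochberg adjustment over 6 tests, adjusted p = 4.32e-230 and 8.37e-61). They were more often at promoters than peaks of aNPC alone, by 0.880 percentage points (exact test, adjusted p = 0.000638), but this difference turned to -0.194 points when an eA peak within 1 kb was counted as present. The intergenic share was above that of all-stage peaks by 19.7 points (exact test, adjusted p = 1.71e-170) and above that of aNPC and eA peaks by 14.8 points (adjusted p = 2.11e-61), and it differed from that of aNPC alone by 0.762 points (adjusted p = 0.316). These tests compare peaks of one list with each other, not cultures, and neighbouring peaks are not independent, which holds for every such test here.

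Most promoter members had an eA peak close by, though fewer belonged to a gene with an eA peak at a promoter. Of the 187 promoter members, 159 (85.0%) had an eA H3K27ac peak within 1 kb, and 73 (39.0%) belonged to a gene that had an eA peak centred on a promoter. The rule bars an eA peak over a promoter member. The choice itself can thus lower the share of 39.0%, which is not compared with other genes. The strongest promoter members by their rank in both lists, named after their values were seen, were those of Tob2, Pik3ip1, Zxdc and Pde4b. The Tob2 site (chr15:81690033-81690414, 998 bp upstream of the start site) had a −log10 q of 85.0 in aNPC and of 17.2 in lA, with summits 8 bp apart, no eA peak for 742 bp, and H3K4me1 in lA only (−log10 q of 3.09). At Pde4b, which encodes a cAMP phosphodiesterase, the aNPC and lA peaks (19.7 and 26.2) shared 11 bp, their summits were 464 bp apart, and an eA peak lay 39 bp away. The member at the promoter of Cdh4, the gene of R-cadherin, lay 73 bp from an eA peak, with summits 505 bp apart in aNPC and lA. These sites differ in kind: the Tob2 summits coincided, whereas those of Pde4b and Cdh4 marked different places of one promoter region.

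H3K4me1, which the choice of members did not use, was present at most members at every stage, the one without an H3K27ac peak included. An H3K4me1 peak overlapped 4429 members in aNPC (83.5%, 82.5 to 84.5%), 4750 in eA (89.5%, 88.7 to 90.3%) and 4622 in lA (87.1%, 86.2 to 88.0%). Over all aNPC H3K27ac peaks the shares were 82.2%, 79.5% and 72.2%, so that the members lay close to them in aNPC and above them later. All 3 lists had one at 4012 members (75.6%, against 66.5% of all aNPC peaks), and none had one at 248 (4.67%, against 12.4%). By class, all 3 lists had one at 81.9% of peaks of all stages and 75.5% of peaks of aNPC and eA. At peaks of aNPC alone it was 42.1%, so the members stood above that class only. Only 94 members (1.77%) followed the H3K27ac pattern, with H3K4me1 in aNPC and lA and not in eA, close to the 1.80% over all aNPC peaks. A further 368 members (6.94%) had H3K4me1 in eA and lA but not in aNPC, compared with 2.32% of all aNPC peaks.

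From aNPC to eA, 480 members gained an H3K4me1 peak and 159 lost one, a net change of 6.05 percentage points, while over all aNPC peaks 2987 gained and 5118 lost one, a net change of -2.75 points. From eA to lA, 242 members gained and 370 lost one (-2.41 points), against -7.33 points over all aNPC peaks. The H3K4me1 lists grew in length along the course (150527, 181227 and 203377 peaks), and with equal numbers of peaks per list the share in eA was 86.8% and that in lA 80.6%. The net gain from aNPC to eA was largest at the weakest sites. Members with an aNPC H3K27ac −log10 q under 5 went from 75.1% to 87.1%, and those at 20 or more went from 95.9% to 92.7%.

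**Figure D1:**
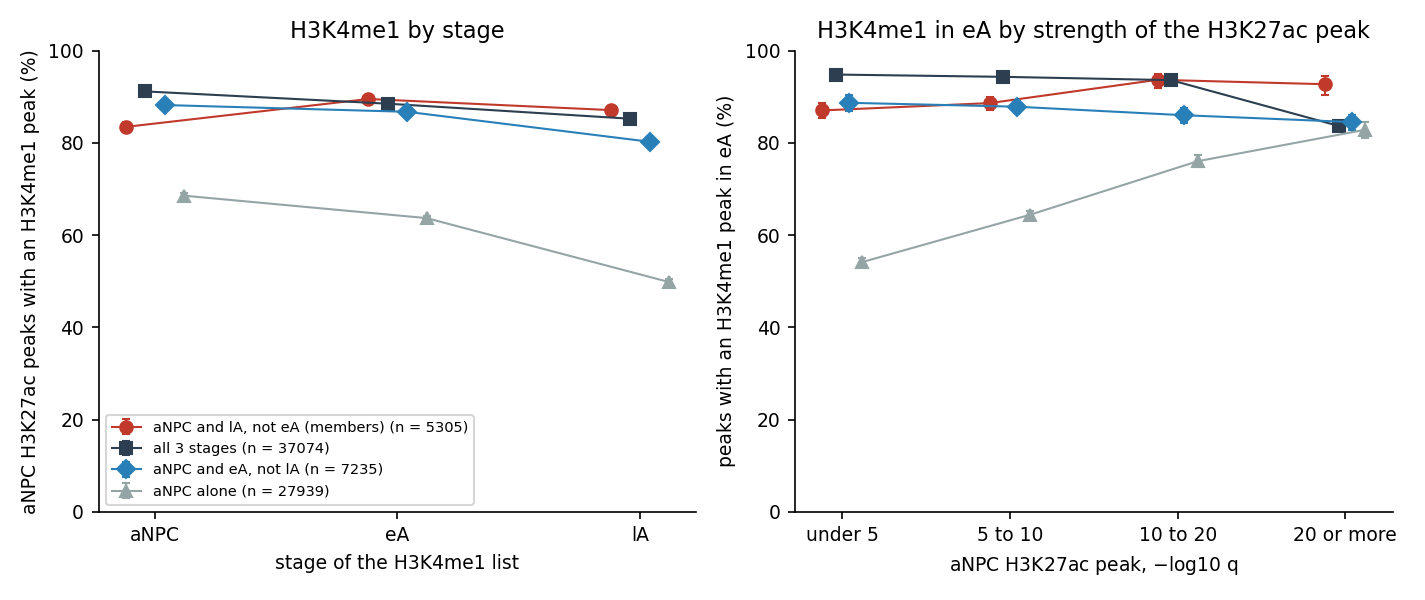
Share of aNPC H3K27ac peaks that overlap an H3K4me1 peak, in percent, by the stage of the H3K4me1 list (left) and, for eA, by the −log10 q of the aNPC H3K27ac peak (right), for the members and the 3 other classes. Points are shares and bars 95% Wilson intervals (counting error only). Members went from 83.5% in aNPC to 89.5% in eA, while the peaks of aNPC alone fell to 63.7%, and on the right members crossed the peaks of all stages with rising strength.

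In eA, members had H3K4me1 far more often than the peaks of aNPC alone, which also had no H3K27ac peak there, at 89.5% against 63.7% (Fisher's exact test, adjusted over 12 tests, adjusted p of at most 4e-300). This difference kept its direction in each range of peak strength, with odds ratios from 2.64 to 5.69. Against peaks of all 3 stages the pooled share was higher by 1.02 points (exact test, adjusted p = 0.0323) and against peaks of aNPC and eA by 2.78 points (adjusted p = 3.12e-06), but neither held across peak strengths. Among peaks with a −log10 q under 5, H3K4me1 in eA covered 87.1% of members and 94.8% of all-stage peaks (exact test, adjusted p = 1.31e-20, over 15 tests), and from 5 to 10 it covered 88.6% and 94.3% (adjusted p = 7.28e-17). From 10 to 20 the shares were 93.7% and 93.6% (exact test, adjusted p = 1), and at 20 or more 92.7% of the 565 members and 83.7% of all-stage peaks had it (adjusted p = 6.66e-10). With promoter peaks left out of every class, the pooled shares were 89.996% in members, 90.7% at all-stage peaks and 89.1% at peaks of aNPC and eA (exact test, both adjusted p = 0.149). In aNPC itself members had H3K4me1 less often than all-stage peaks, with a difference of -7.70 points (exact test, adjusted p = 1.69e-60). The aNPC shares of members were lower in 3 of the 4 ranges, with 75.1% against 92.7% of all-stage peaks under 5, 82.3% against 94.5% from 5 to 10 and 92.7% against 95.6% from 10 to 20, and higher at 20 or more, with 95.9% against 88.3%.

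The H3K4me1 peaks at members ranked above the middle of their lists, as did those at the other classes. Where a member overlapped one, the strongest such peak had a median rank within its own list of 75.8% for aNPC, 78.5% for eA and 77.5% for lA, where 50% would be the middle. The ranks at peaks of aNPC alone were 68.1%, 66.4% and 60.9%, and those at all-stage peaks 83.5%, 84.1% and 83.6%. At peaks of aNPC and eA they were 78.8%, 77.9% and 73.6%. Taking the strongest of the overlapping peaks can raise these ranks in every class. The median width of the overlapping H3K4me1 peak was 896, 930 and 830 bp at the 3 stages.

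The members divided almost evenly by whether an eA H3K27ac peak lay close by. An eA peak lay within 100 bp of 549 members (10.3%), within 500 bp of 2087 (39.3%) and within 1 kb of 2478 (46.7%, 45.4 to 48.1%). Within 50 kb there was one for 4961 members (93.5%), which left 344 members with none. Peaks of aNPC and eA, measured to the nearest lA peak, gave 44.3% within 1 kb and 93.8% within 50 kb, and peaks of aNPC alone gave 21.1% and 87.7% to the nearest eA peak. Of the 2478 members near an eA peak, several of which can share one, 1795 (72.4%) had a nearest eA peak that overlapped another aNPC peak and 1946 (78.5%) one that overlapped an lA peak. In 775 members (14.6%) the lA peak that overlapped the member also reached over an eA peak beside it. An eA peak was thus called over another part of that lA peak, and none over the member.

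**Figure D2:**
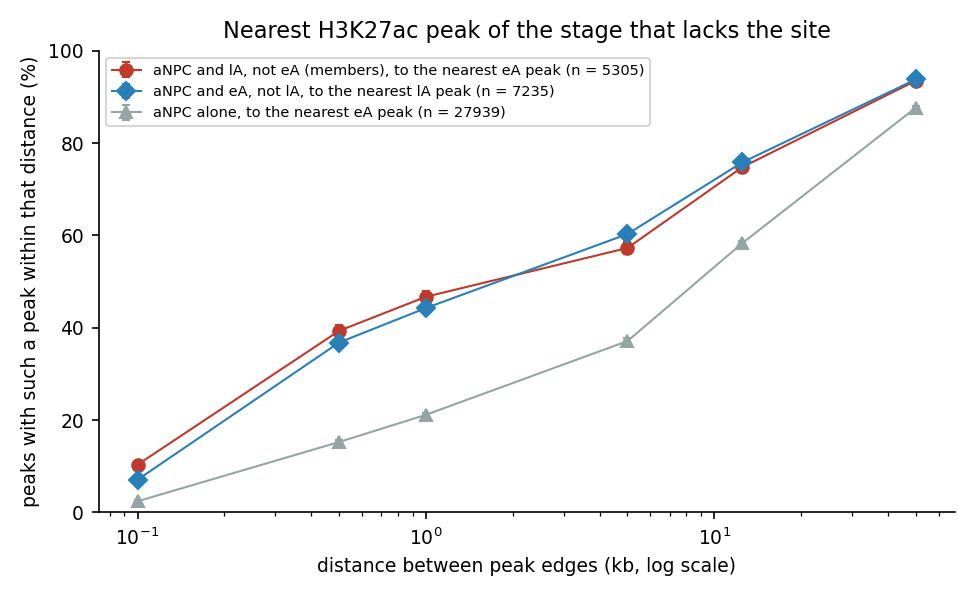
Share of peaks, in percent, with an H3K27ac peak of the stage that lacks the site within a given distance between peak edges (kb, log scale). Members and peaks of aNPC alone are measured to the nearest eA peak and peaks of aNPC and eA to the nearest lA peak, with 95% Wilson intervals as bars. The members and the peaks of aNPC and eA follow each other closely, at 46.7% and 44.3% within 1 kb, and the peaks of aNPC alone lie at 21.1%.

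The choice of members leaves a hollow in eA H3K27ac around the aNPC summit, because no eA peak may share a base with a member. The H3K4me1 lists were not part of that choice. An eA H3K27ac peak covered 0% of the members at the summit, by the choice of members, and 12.1% and 12.6% at 500 bp to either side. At 2.5 kb to the left on the plus strand the 3 stages covered 2.58%, 2.51% and 2.32% of members. H3K4me1 peaks of the 3 stages covered 74.3%, 81.9% and 76.6% of the summits, and 43.4%, 46.9% and 43.4% of the positions 500 bp to the left. The 2827 members with no eA H3K27ac peak within 1 kb had H3K4me1 in eA in 91.4% of cases (90.3 to 92.4%), and the 2478 close to one in 87.4% (86.0 to 88.7%). The isolated members were also the stronger and wider ones in aNPC, with a median −log10 q of 7.42 and width of 375 bp against 6.03 and 291 bp. In lA the order was the other way, with a median −log10 q of 5.68 for the isolated members and 6.56 for the others. Of the isolated members 28 lay at promoters, against 159 of the others.

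**Figure D3:**
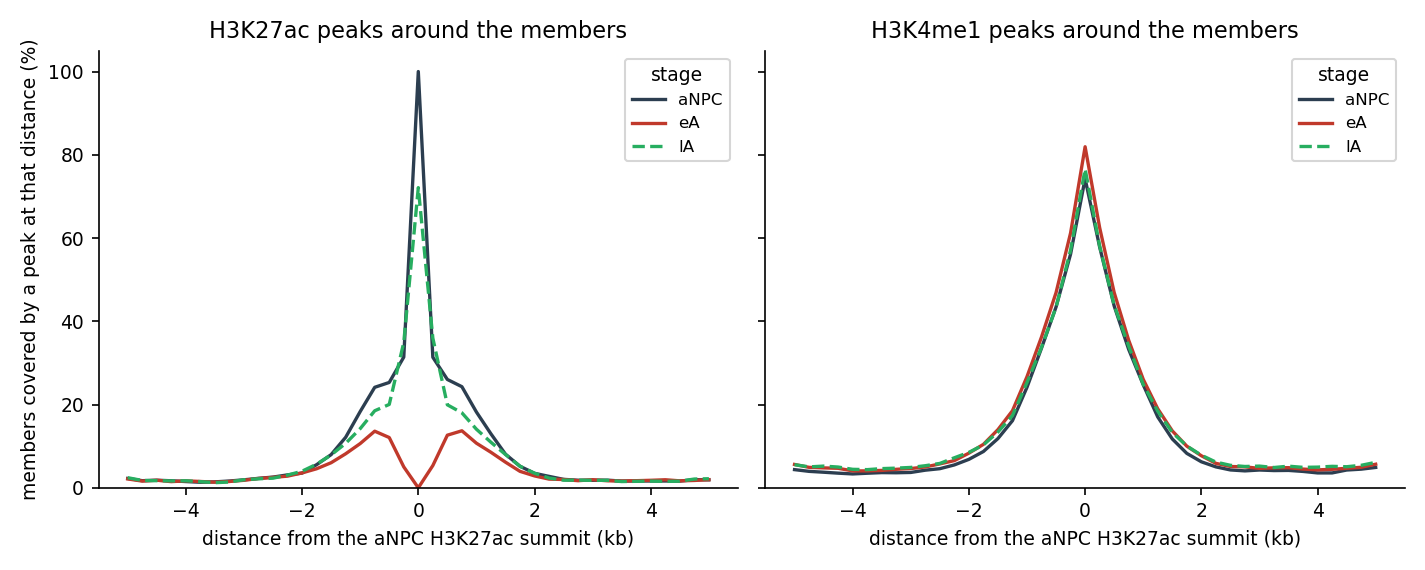
Share of the 5305 members covered by a peak, in percent, at each distance from the aNPC H3K27ac summit (kb), for H3K27ac (left) and H3K4me1 (right) in aNPC, eA and lA. The H3K27ac values at the summit follow from how the members were chosen (100% in aNPC and 0% in eA). So do the low eA values close to it, since no eA peak overlaps a member. The eA line rises to 12.1% and 12.6% at 500 bp on either side, and H3K4me1 in eA stands at 81.9% on the summit.

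The 12 members that ranked highest in both the aNPC and the lA list, with no eA H3K27ac peak within 1 kb, had a lower rank of at least 71.7%. Of these, 11 had H3K4me1 in eA. The first was an intergenic site on chromosome 11 (chr11:116746743-116747487) 31.7 kb from the start site of Mfsd11, a gene of the major facilitator transporter family. It had an H3K27ac −log10 q of 39.9 in aNPC and 21.4 in lA with summits 75 bp apart, the nearest eA peak lay 31.1 kb away, and the H3K4me1 peaks over it had −log10 q values of 27.9, 26.3 and 25.7 in the order of the stages. These values come from separate lists and are not compared with each other in size. The second, at chr11:116614269-116616663 in St6galnac1, spanned 2395 bp and carried H3K4me1 at 66.5, 60.03 and 84.2, with the nearest eA H3K27ac peak 27.7 kb away. At both sites eA thus had an H3K4me1 peak and no H3K27ac peak for 27.7 kb or more.

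In the body of Arsg, a lysosomal sulfatase gene, a member 538 bp past the start site (chr11:109347171-109347744) had 29.9 in aNPC and 17.8 in lA, and H3K4me1 of 15.8, 16.9 and 12.52 in the 3 stages. Among intronic sites, the member in Cald1, the gene of the actin-binding protein caldesmon, had 45.0 and 16.8, and those of Anks1, Igf2bp3 and Snx9 had aNPC values of 31.9, 32.7 and 34.4. A different case was a site on chromosome 11 (chr11:113033970-113034361) whose nearest coding start site, 388 kb away, was that of Sox9, an HMG-box factor of gliogenesis. It had 34.7 and 16.9 for H3K27ac, no H3K4me1 peak at any stage, and an eA H3K27ac peak 1006 bp away. The member in Accn5, a gene of the acid-sensing ion channel family, had the highest aNPC value of the 12 (126) and an lA value of 14.9.

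**Figure D4:**
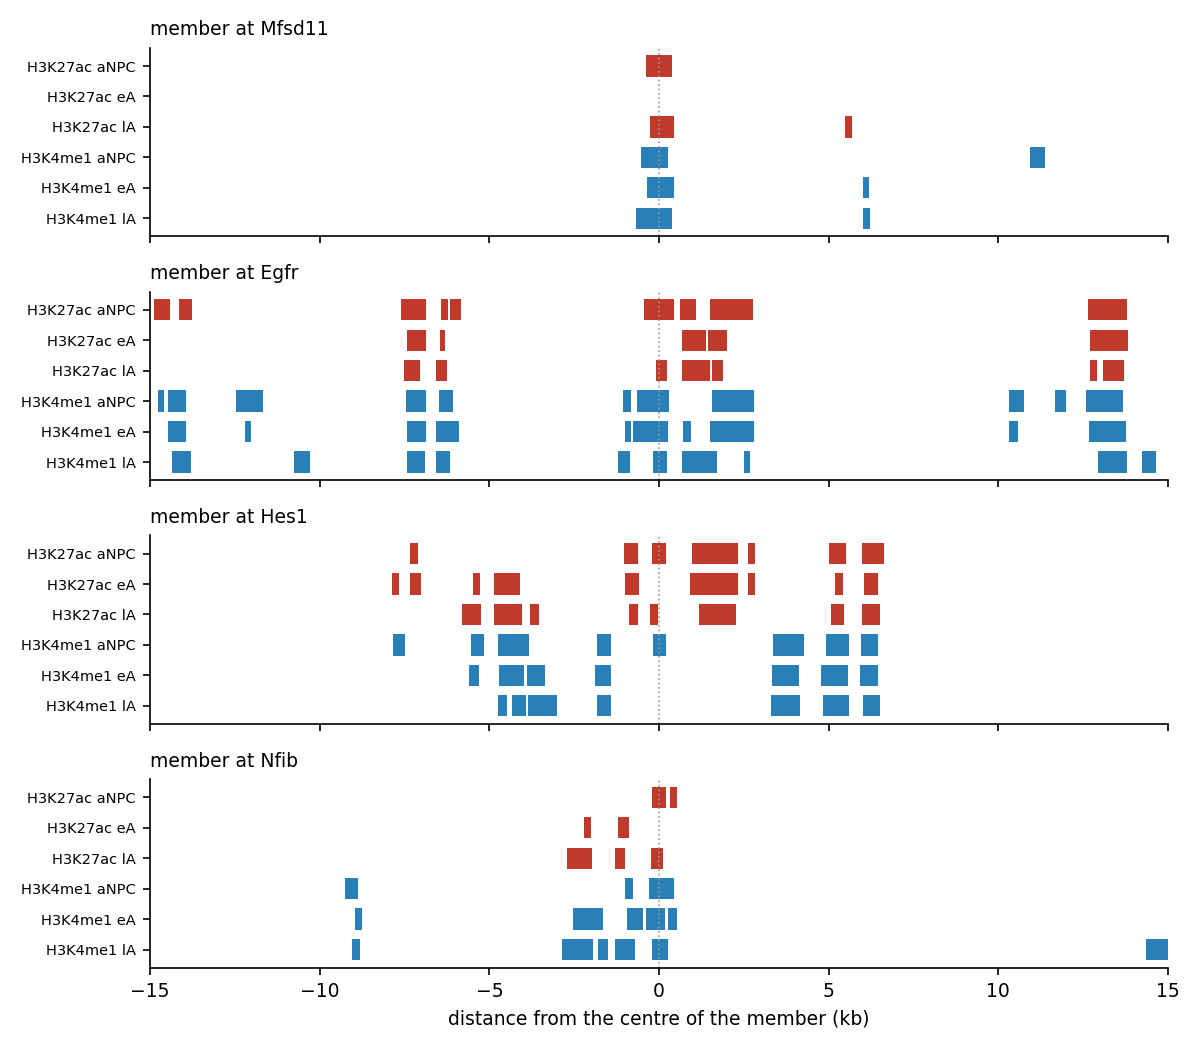
Peaks of the 6 lists within 15 kb of a member's centre (distance in kb, the dotted line at 0) for the members at Mfsd11, Egfr, Hes1 and Nfib. Each bar is a peak drawn to its width, H3K27ac in red and H3K4me1 in blue, by stage. The row for H3K27ac in eA is empty at the centre of every locus, while eA H3K4me1 peaks stand there at Mfsd11, Egfr and Nfib but not at Hes1.

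Some members followed each other along the chromosome without another aNPC peak or an eA peak between them. Of the 5305 members, 1140 lay in 529 such runs, most of them pairs (463 runs), and 12 runs had 4 or more. The longest held 6 members over 50627 bp on chromosome 7 (chr7:133359749-133410375), between Xpo6, which encodes a nuclear exporter of actin, and the kinase gene Sbk1. Its members had aNPC −log10 q values from 5.28 to 9.24, 4 of the 6 had H3K4me1 in eA, and the stretch around them without an eA H3K27ac peak measured 71487 bp. On chromosome 9 (chr9:25399137-25604267), 5 members in Eepd1 and beyond it, with aNPC values from 4.74 to 57.1, lay in 610118 bp without an eA H3K27ac peak. Of these 5 members, 4 had H3K4me1 in eA, and the whole span of the run overlapped 12 H3K4me1 peaks of eA. On chromosome 16 (chr16:29000942-29236007), 5 members near Hrasls and 1600021P15Rik lay in 573838 bp without one, all 5 with H3K4me1 in eA. Of the 9 runs of 4, those with the longest spans lay around Edn2, the endothelin-2 gene (chr4:119800963-119861286), and near 4933403G14Rik (chr8:128143194-128182365), and all 8 members of this pair of runs had H3K4me1 in eA. Some neighbours in these runs lay under the same peak, as the first pair at Xpo6, which shared 1 lA H3K27ac peak, so members of a run are not separate sites by every measure.

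Members were given to a gene by the nearest coding start site when they lay in a gene or less than 50 kb from it, which placed 3721 members at 2495 genes, or 17.9% of the 13959 genes with an aNPC H3K27ac peak. Of the 2458 members in exons and introns, 1993 (81.1%) lay in the body of the gene so named. A gene had a member more often the more aNPC peaks it held, from 3.48% of the genes with 1 to 2 peaks and 18.9% of those with 3 to 5 to 86.3% of those with 21 or more. Nearly all member genes had some H3K27ac peak in eA, as did most genes with an aNPC peak. An eA H3K27ac peak was assigned to 2409 of the 2495 (96.6%), close to the 94.7% over all genes with an aNPC peak, and 1132 (45.4%) had one at a promoter against 52.1%. At genes with a promoter member the rule itself can lower the promoter share.

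Of the 10 genes with the most members, each had 23 or more aNPC peaks. Frmd4a, which encodes a FERM domain scaffold, had 7 members among 51 aNPC peaks, all 7 in introns, 6 of them more than 1 kb from any eA peak and all 7 with H3K4me1 in eA. Cdh4 had 7 of 23 aNPC peaks (30.4%), all 7 with H3K4me1 in eA, and Xylt1, a xylosyltransferase that starts proteoglycan chains, had 7 of 50, of which 5 had H3K4me1 in eA. In Fhit, a gene of 1612 kb in this annotation, 7 of 40 peaks were members, and 5 of the 7 lay within 1 kb of an eA peak. Rbms3, Adam12, Sox5 and Sema6d had 6 members each, among 42, 35, 43 and 63 aNPC peaks. The 6 members named for Trim32 lay in introns of Astn2, an astrotactin gene that spans it, and 5 of the 6 named for Wwc1 in introns of its neighbour Odz2, a teneurin. Each of these genes also held eA H3K27ac peaks, from 18 at Trim32 to 63 at Sema6d.

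Genes of the signals that define the media were among those with members, at shares that varied by list and stood beside the 17.9% of all genes with an aNPC peak. Because genes with many peaks had members more often, the median number of aNPC peaks per gene is given with each share. Of 23 neural progenitor genes with an aNPC peak, 9 had a member (39.1%, median of 6 peaks per gene), of 24 genes of FGF and EGF receptors and their feedback 8 (33.3%, median 8.5), of 18 genes of the gp130, JAK and Stat pathway 7 (38.9%, median 4), and of 27 astrocyte genes 5 (18.5%, median 4). Of 38 guidance, Eph and adhesion genes 21 had a member (55.3%, median of 18 peaks over the 38). Counted over peaks, the share of members was 7.79% in the progenitor list, 3.97% in the FGF and EGF list, 7.69% in the gp130 list, 4.4% in the astrocyte list and 5.51% in the guidance list, around the 6.84% of the whole aNPC list. Of 14 neuronal genes with an aNPC peak 1 had a member (7.14%, median 4), the GABA synthesis gene Gad1. That was 1 of 84 peaks (1.19%), below the 6.84%. Of 5 microglial genes (median 2), which had 16 aNPC peaks, none had a member.

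The other lists are given in the same way, by genes and then by peaks. Of 23 Notch genes 5 had a member (21.7%, median of 3 peaks per gene), led by the coactivator gene Maml2 with 3 and the ligand gene Jag1 with 2. Of 28 BMP and TGF-beta genes 7 did (25%, median 6), among them the signal transducers Smad5 with 4 and Smad3 with 3 and the receptor Tgfbr2 with 2. Of 29 Wnt genes 10 did (34.5%, median 8), led by Ctnnb1, the gene of beta-catenin, and its partner Tcf7l2 with 3 each. Of 18 AP-1 and Atf genes 4 did (22.2%, median 3), with 3 members at Fos, and of 8 Nuclear factor I and Runx genes 4 did (50%, median 13.5). Of 11 oligodendrocyte lineage genes 4 did (36.4%, median 5), namely Pdgfra and Cspg4, both markers of oligodendrocyte precursors, with 3 each, Gm98 with 2 and Olig2 with 1. The endothelial and mural list had 2 of 6 genes (Tek and Cdh5) and the pluripotency list 2 of 6 (Esrrb and Tcfcp2l1). Over peaks, the share of members was below the 6.84% of the whole list for Notch (5.03%), BMP and TGF-beta (6.63%), Wnt (5.65%) and Nuclear factor I and Runx (4.55%). It was above for AP-1 and Atf (8%), oligodendrocyte lineage (13.2%, 9 of 68 peaks), endothelial and mural (9.52%, 2 of 21 peaks) and pluripotency genes (7.41%, 2 of 27 peaks), none of which was tested.

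The progenitor gene Hes1, an effector of Notch, had a member 666 bp upstream of its start site (chr16:30064544-30064976). Its H3K27ac −log10 q was 18.6 in aNPC and 10.5 in lA, the peaks shared 179 bp, an eA peak lay 363 bp away, and H3K4me1 was present in aNPC (12.54) but in neither eA nor lA. The Hes1 site thus had no peak of either mark in eA. In Egfr the stronger of 2 members (chr11:16730456-16731329) had 43.7 in aNPC and 7.05 in lA, an eA H3K27ac peak 235 bp away, and H3K4me1 at all stages (22.7, 22.3 and 20.7). The ligand gene Fgf2 had an intronic member (chr3:37297549-37297900) at 14.5 and 9.49, 320 bp from an eA peak, with H3K4me1 at all stages (17.2, 17.2 and 9.29). The receptor gene Fgfr2 had 2, one with H3K4me1 in eA (34.5) and lA (41.5) but not in aNPC. That site lay 54.4 kb upstream of the nearest Fgfr2 start site and counted for Fgfr2 because a long gene model in this annotation, which spans neighbouring genes, holds it, and the other lay 88.3 kb downstream of one. Lhx2, a LIM homeobox gene of the forebrain, had 2 at 42.5 and 43.2 kb from its start site, with no eA peak within 42.6 kb and H3K4me1 at all stages. Tnc, which encodes the matrix protein tenascin C, had 2 members with H3K4me1 at all stages.

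In the gp130 list each of the 7 genes had 1 member. The member of Stat5b, a Stat transcription factor, lay 277 bp upstream of the start site (chr11:100712062-100712567) with 35.3 in aNPC and 7.81 in lA, 167 bp from an eA peak and with H3K4me1 at all stages (39.0, 24.97 and 10.3). The member nearest Socs3, the feedback inhibitor of gp130 signalling, lay 33.8 kb from its start site (chr11:117796354-117797023) with 48.8 in aNPC and 10.8 in lA, 3.79 kb from the nearest eA peak, and the summits were 721 bp apart. That of Cntfr, the CNTF receptor, rested on an lA overlap of 1 bp and lay 14 bp from an eA peak. The other 4 genes were Socs1, Socs2, Osmr, the oncostatin M receptor, and Lifr, the LIF receptor.

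Among Nuclear factor I genes, which encode astrogliogenic transcription factors, Nfib had 4 intronic members, Nfia 2 and Nfic 1. At Nfib the aNPC values were 9.63, 6.23, 14.5 and 14.2, and 3 of the 4 sites had H3K4me1 in eA. The fourth (chr4:82153188-82153399) had H3K4me1 in lA only. The Nfic member lay 577 bp upstream of the start site (chr10:80870732-80871194), with 10.8 in aNPC and 3.27 in lA, 590 bp from an eA peak and H3K4me1 at all stages (43.9, 22.7 and 33.0). Both Nfia members were weak in aNPC (5.57 and 6.10) and had H3K4me1 at all stages. Of the other astrocyte genes, Gjb6, the connexin 30 gene, had 2 members 44.1 and 45.6 kb from the nearest eA peak, with H3K4me1 at all stages, Sparc, a matrix glycoprotein gene, had 2, and Aldh1l1 had 1. The promoters of Gfap and Aqp4 held no member.

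The summits of members were poorer in CpG than those of the classes with more promoters. The median GC content of the 200 bp at the summit was 48% in members, 52% at peaks of all stages, 48.5% at peaks of aNPC and eA and 47% at peaks of aNPC alone, and the mean number of CpG dinucleotides was 2.17, 6.99, 5.05 and 2.247. The 10 motifs were searched as exact letters on both strands: TGCCAAG (NF1 half-site), TGAGTCA (AP-1), TGTGGTT (RUNX), TTCCNGGAA (Stat), TAATTAG (Lhx2), ATGCNAAT (POU), CCATTGT (Sox), TGGAATG (TEAD), CAGCTG (an E-box) and GGGCGG (the GC box). At least 1 was found in 1782 members (33.6%), and matches of different motifs overlapped in at most 4 members for any pair. The GC box, bound by Sp1-type factors at promoters, was in 2.997% of members against 15.2% at peaks of all stages and 9.99% at peaks of aNPC and eA (Fisher's exact test adjusted over 30 tests, adjusted p = 2.25e-171 and 1.80e-55), and in 9.39% over all aNPC peaks. At peaks of aNPC alone it was in 2.76%, close to the members (exact test, adjusted p = 0.511). With promoter peaks left out, the difference from peaks of all stages was -8.70 points (exact test, adjusted p = 3.67e-102). That from peaks of aNPC and eA was then -4.83 points (exact test, adjusted p = 4.15e-30).

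Factor motifs differed little in the 200 bp windows. The NF1 half-site was in 247 members (4.66%, 4.12 to 5.26%) against 4.35% over all aNPC peaks, and AP-1 letters in 211 (3.98%) against 3.63%. RUNX letters were also in 211 members (3.98%) against 3.92%, and Stat letters in 40 (0.754%) against 0.650%, and none of these 4 passed the adjusted tests against any class. Sox letters were in 173 members (3.26%), above the 2.40% at peaks of all stages (exact test, adjusted p = 0.00291), and Lhx2 letters in 87 (1.64%), above 1.15% (adjusted p = 0.0183). With promoter peaks left out neither passed (exact test, adjusted p = 0.103 and 0.160). The differences were then 0.616 points for Sox and 0.388 for Lhx2, against 0.863 and 0.494 with promoter peaks. The Sox call was also lost with a −log10 q of 5 or more asked of each H3K27ac list (0.671 points, exact test, adjusted p = 0.0914), and the Lhx2 call with an eA peak within 1 kb counted as present (0.411 points, exact test, adjusted p = 0.202). POU letters were in 95 members (1.79%), below the 2.52% at peaks of aNPC alone (exact test, adjusted p = 0.00918), a call that was lost with a −log10 q of 5 or more asked of each H3K27ac list (-0.342 points, adjusted p = 0.400) and with an eA peak within 1 kb counted as present (-0.399 points, adjusted p = 0.489). In 500 bp windows 14 of the 30 tests passed instead of 5, among them AP-1 against all 3 classes (by 1.43 to 1.46 points). RUNX letters there exceeded peaks of all stages by 2.44 points (exact test, adjusted p = 1.39e-07) and peaks of aNPC and eA by 1.29 points (adjusted p = 0.0437), and differed from peaks of aNPC alone by 0.462 points (adjusted p = 0.400).

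**Figure D5:**
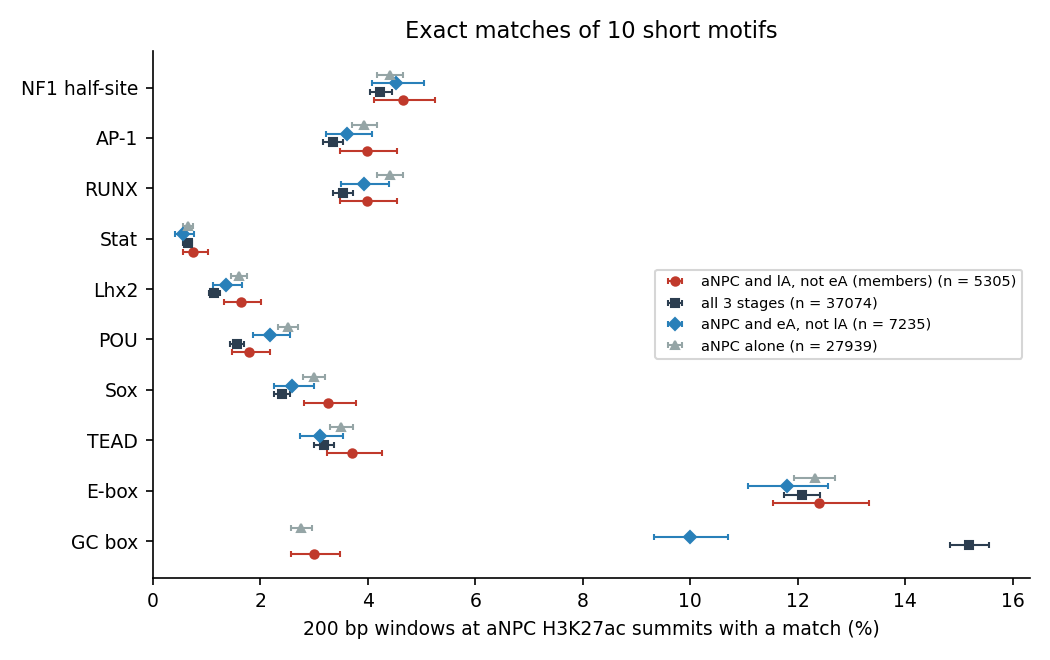
Share of 200 bp windows at aNPC H3K27ac summits, in percent, with at least 1 exact match of each of 10 short motifs on either strand, for the members and the 3 other classes, with 95% Wilson intervals as bars. The classes lie close together except for the GC box, at 2.997% of members, 2.76% of the peaks of aNPC alone and 15.2% of the peaks of all stages.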

How the data were processed

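H3K27ac and H3K4me1 ChIP-seq peak lists of aNPC, eA and lA were used, 1 list per stage and mark. The authors aligned reads uniquely to mm9 with Bowtie, merged the 2 replicates with SAMtools 0.1.19 and called peaks with MACS2 at default settings without input. The deposited score, the deposited fold enrichment ratio over the local background and the deposited −log10 q at the summit are MACS2 values, and the authors' summit offset gave the summits. Here the −log10 q ranked or filtered peaks within a list. Depth is not given in the sources used here.

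Peaks on chromosomes 1 to 19 were compared by overlaps of at least 1 bp and annotated with GENCODE M1 on mm9, in which a few gene models span several genes. List genes under an older symbol were matched through RefSeq synonyms. Shares have 95% Wilson intervals, which cover counting error only. Classes were compared with two-sided Fisher's exact tests, Benjamini-Hochberg adjusted per family. Before adjustment, p-values under 1e-300 were set to 1e-300, so an adjusted p that rests on this limit is an upper bound. Class assignment, distances and motif search were tested on simulated data. Named members are the 12 with the highest lower rank in aNPC and lA and no eA peak within 1 kb, the 10 genes with most members, the 5 longest runs, the leading genes of 5 of the 15 lists, and the sites at the edge of the rule. The leading genes of the other lists, the promoter sites and the motif examples were named after their values were seen. A named site and a marker gene are not reported here. Members, gene lists and tests were chosen with earlier results of these data known. Alternatives were other overlap rules, peak thresholds, list lengths, promoter definitions, gene distances and motif windows. Of 51 samples in the series, 12 entered these lists. The others (RNA-seq, and H3K27ac of control and knockdown cultures) were not analysed here, and 8 of them have labels that contradict each other. Python 3.11.15, NumPy 2.4.6, pandas 2.3.3, SciPy 1.17.1, pysam 0.24.0, samtools 1.23.1 and matplotlib 3.10.9 were used.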

Additional observations from a re-analysis of the deposited data

How the results depend on the processing

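The number of members, 5305, was 2827 when an eA peak within 1 kb counted as present, 3448 when all 3 H3K27ac lists were held to a −log10 q of 5 or more and 2352 with that threshold in aNPC and lA only. The number of genes with a member, 2495, was 1389 under the 1 kb rule. The promoter share, 3.52%, was 7.03% within 1 kb of any start site, 4.50% with the threshold in all lists and 0.990% under the 1 kb rule, where its difference from peaks of aNPC alone turned to -0.194 points (exact test, adjusted p = 0.402). The other 11 of 12 promoter comparisons kept direction and call.

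The H3K4me1 shares in aNPC, eA and lA (83.5%, 89.5% and 87.1%) were 74.3%, 81.9% and 76.6% when the aNPC summit had to lie in the H3K4me1 peak, 79.6%, 85.4% and 82.3% with that threshold in the H3K4me1 list, 89.8%, 93.0% and 91.6% with it in all H3K27ac lists, and 86.2%, 91.4% and 89.99% under the 1 kb rule. With equal H3K4me1 lists, eA gave 86.8% and lA 80.6%. Alternatives chosen after seeing the data bear on the comparison of H3K4me1 in eA with other classes. Against peaks of all stages, 1.02 points became -0.702 without promoter peaks, -7.78 at a −log10 q under 5, -5.69 from 5 to 10 and 0.0711 from 10 to 20. Against peaks of aNPC and eA, 2.78 points became 0.896 without promoter peaks, -1.66 under 5 and 0.784 from 5 to 10, but 7.69 from 10 to 20 and 8.21 at 20 or more, and 12.2 under the 1 kb rule. Against all stages, 20 or more gave 9.05 and the 1 kb rule 2.95. The threshold in all lists gave 5.87, the summit rule 4.96, the threshold in aNPC and lA 3.67 and the 50% overlap 3.43. The causes were not tested.

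The share of members with an eA peak within 1 kb, 46.7%, was 40.3% with the threshold in all lists and 57.3% within 5 kb, and 55.6% with overlaps of at least 50% of the shorter peak, chosen after seeing the data. The share with at least 1 motif, 33.6%, was 66.7% in 500 bp. The motif tests past the threshold, 5 of 30, became 14 in 500 bp, 3 without promoter peaks and 3 under the 1 kb rule. No paired analysis was possible because the replicates of a stage were merged before peaks were called.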
